A study of Mus musculus with 2 samples.

Results

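The clustered protocadherin genes are the protein-coding genes of chromosome 18 whose symbols start with Pcdha, Pcdhb, Pcdhga, Pcdhgb or Pcdhgc. The annotation (GENCODE M21 on mm10) holds 57 of them among 21938 protein-coding genes: 14 α, 22 β, 12 γA, 6 γB and 3 γC genes. Of the 57 genes, 2 carry the same symbol, Pcdha11, and the one starting at 37005203 is Pcdha10 in RefSeq. They lie in one direction over 912 kb, from 36930184 to 37841873. The assay, ATAC-seq, uses a transposase that cuts accessible DNA, and it was run on T helper 2 (Th2) cells, the CD4 T cells that secrete type 2 cytokines. The cells were primary cells of strain C57BL/6NJ, with no genetic change or treatment named in the labels and with a link to a protocol for differentiating CD4 T cells. There was 1 group of 2 biological replicates, from separate biosamples under a single donor record, with sex and age not stated and no control or second cell type. Separate animals are not named, and differences between the replicates may therefore be of technical origin only. All values are from 1 list of open regions per library.

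Clustered protocadherins are cell surface adhesion proteins known above all from neurons, where different combinations of them give each cell an identity that lets its branches recognise and avoid one another. Each α and γ gene has its own promoter and a large variable exon, which is spliced to constant exons at the end of its subcluster, whereas β genes have no constant exons. In neurons most promoters are chosen at random in each cell, through DNA methylation, the factor CTCF and cohesin, which bring a chosen promoter to distant enhancers. The C-type genes (Pcdhac1, Pcdhac2, Pcdhgc3, Pcdhgc4 and Pcdhgc5) are used more uniformly.

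The lists held 51557 regions in replicate 1 and 60891 in replicate 2. The authors' fold enrichment, the count at a region's summit over local background, had a median of 5.58 and 5.65, and 86.7% and 73.5% of regions overlapped one of the other list. A gene is called open here where a region overlapping between both lists had its centre within 1 kb of an annotated start site. Member starts lay at least 4.13 kb apart, so no region could count for more than 1 member. Promoters of all 6 Th2 markers (Gata3, Il4, Il5, Il13, Ccr4 and Il4ra) were open, from Il13 with fold enrichments of 2.60 in replicate 1 and 2.76 in replicate 2 to Il5 with 8.20 and 9.13. Those of 5 of 5 T cell markers were open too, from Cd4 with 2.75 and 3.88 to Cd28 with 8.23 and 9.17. Of genes listed as markers of other cells, 3 of 7 neuronal and glial genes were open (Map2 with 11.7 and 9.94, Syn1, and Tubb3 with 3.54 and 3.13). Of 4 endothelial and fibroblast genes, 1 was open (Pecam1 with 3.75 and 4.52). Rbfox3, Snap25, Gfap, Olig2, Cdh5, Col1a1 and Col3a1 had no promoter region in either list. Over all protein-coding genes outside the clustered protocadherins, 57.4% were open, so counts in lists this short say little of cell identity. Whether Th2 cells use any of these genes was not tested.

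Few clustered protocadherin promoters were open, and those that were all belonged to the γ subcluster. A promoter region was present in both replicates at 5 of 57 genes (8.77%), against 57.4% of the other protein-coding genes and 64.5% of the others on chromosome 18. The open genes were Pcdhga5, Pcdhgb6, Pcdhgb7, Pcdhgc3 and Pcdhgc4. A further gene, Pcdhgb5, had a region in replicate 1 alone, and Pcdhga7 and Pcdhga12 had one in replicate 2 alone. The remaining 49 had none in either list. With regions limited to a −log10 q of at least 10 in both lists, 2 members were open, Pcdhgc3 and Pcdhgc4, against 51.2% of other genes. In single lists, 6 members in replicate 1 and 7 in replicate 2 had a promoter region, where 58.8% and 59.5% of other genes did. No test was made, since there is 1 group and genes of a cluster are not independent.

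All 14 α genes and all 22 β genes lacked a promoter region in both replicates. These include Pcdhac1 and Pcdhac2, the C-type genes of the α subcluster, and Pcdhb1, the first β gene. No region of either list lay anywhere between 36802418 and 37643740, a stretch of 841 kb that ends at the promoter of Taf7, a gene for a subunit of the general transcription factor TFIID. The stretch holds the whole α and β subclusters, the interval between them and the constant exons of α. In neurons, enhancers of the α genes are known near these constant exons, and no region was called there.

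**Figure D1:**
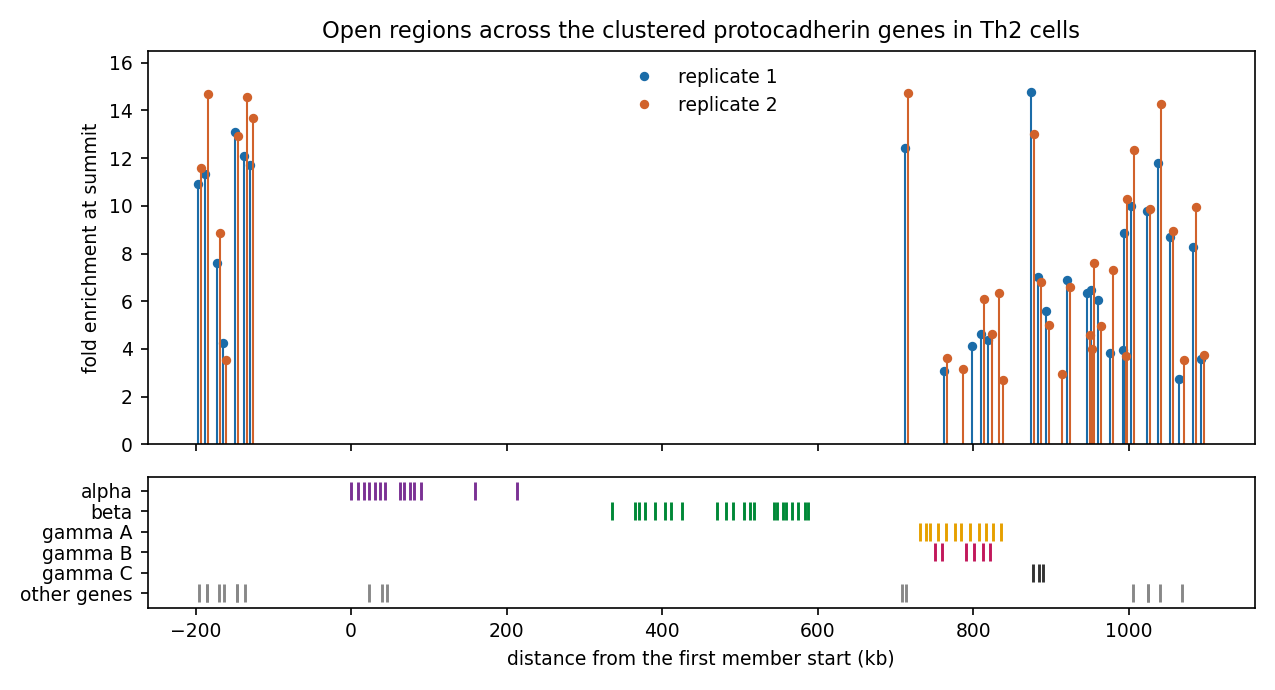
Fold enrichment (upper panel, vertical axis, linear) of each open region in replicate 1 (blue) and replicate 2 (orange) by distance in kb from the first member start, with the replicates drawn slightly apart, above the start sites of each subcluster and of other protein-coding genes (lower panel). No point stands above the α and β starts, and the points return at Taf7, 841 kb past the last upstream region.

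In γ, open promoters were present at 1 of 12 γA (8.33%), 2 of 6 γB (33.3%) and 2 of 3 γC genes (66.7%). Of other protein-coding genes 57.4% were open, so the γC share, from only 3 genes, was near that of other genes. The strongest was Pcdhgc3, the first of the C-type γ genes. Its region lay at 37805946 to 37807437, over the start site, and the fold enrichment was 14.8 in replicate 1 and 13.0 in replicate 2. The summit counts recovered from the deposited values were 120 over a background of 7.20 and 130 over 9.05. Both replicates were high, and the summits lay 56 bp and 8 bp upstream of the nearest annotated start. Among promoter regions of other genes, 95.2% were weaker than this one in replicate 1 and 72.9% in replicate 2. The start of the non-coding gene BC037039 lay 1230.5 bp from the centre of the same region.

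The next C-type gene, Pcdhgc4, had a region at 37814629 to 37815766 of 7.04-fold enrichment in replicate 1 and 6.80-fold in replicate 2, with summits 69 bp upstream of the start in both replicates. Its summit counts were 42 and 47. Of other genes' promoter regions 30.5% and 23.1% were weaker, so this promoter was open in both replicates at a level in the lower part of the range. Pcdhgc5, the last gene of the cluster, had no promoter region in either list.

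Among the variable γ genes, Pcdhgb6 had a region at 37741922 to 37742504 with 4.62 and 6.10, from 17 and 26 counts at the summit. Pcdhgb7 had one at 37751463 to 37751824 with 4.36 and 4.62, from 16 and 21 counts. Pcdhga5 had one at 37694359 to 37694753 with 3.08 and 3.61, from 11 and 15 counts. All 3 ranked low among promoters in both replicates: between 2.47% and 12.5% of other genes' promoter regions were weaker in replicate 1, and between 4.54% and 18.8% in replicate 2. Among all regions of a list, promoters or not, Pcdhgb6 was at percentile 37.6 in replicate 1 and 54.6 in replicate 2, Pcdhgb7 at 33.5 and 37.1, and Pcdhga5 at 10.2 and 20.99. The regions were also narrow, 190 to 362 bp in replicate 1 and 255 to 583 bp in replicate 2, against 1184 and 1492 bp at Pcdhgc3. At Pcdhgb6 the summits lay 52 bp and 43 bp upstream of the start. At Pcdhgb7 they lay 35 bp upstream and 132 bp downstream, and at Pcdhga5 220 bp and 179 bp downstream of the start.

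By level, Pcdhgc3 stood apart from the other 4 in both replicates. Its 95% exact Poisson intervals, which cover counting error at the summit only, were 12.3 to 17.6 and 10.9 to 15.5. Those of Pcdhgc4 were 5.12 to 9.45 and 5.04 to 9.00. The intervals of Pcdhgc4 overlapped those of Pcdhgb6 (2.80 to 7.24 and 4.06 to 8.83), and the intervals of Pcdhgb6, Pcdhgb7 and Pcdhga5 overlapped one another. Overlap of intervals is not a test, and differences between these neighbours were not tested. From Pcdhgc4 down through Pcdhgb6 and Pcdhgb7 to Pcdhga5, the order was the same in both replicates. Between replicates, fold enrichment at the 5 promoters changed by a ratio of 0.883 (Pcdhgc3) to 1.32 (Pcdhgb6), within the 5th to 95th percentiles of all shared regions, 0.760 to 1.64.

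**Figure D2:**
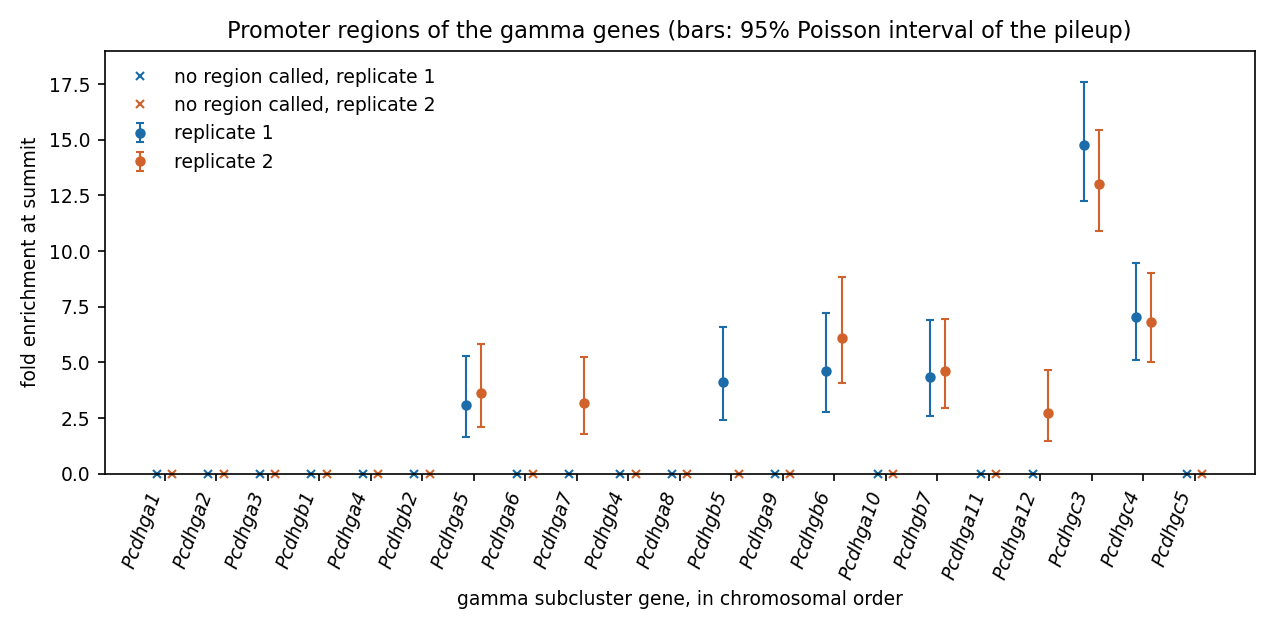
Fold enrichment (vertical axis, linear) at the promoter of each γ gene in chromosomal order, replicate 1 in blue and replicate 2 in orange. Bars are 95% Poisson intervals of the summit count, and crosses on the baseline mark genes with no called region, not a value of 0. Pcdhgc3, at 14.8 and 13.0, lies above every other gene.

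**Figure D3:**
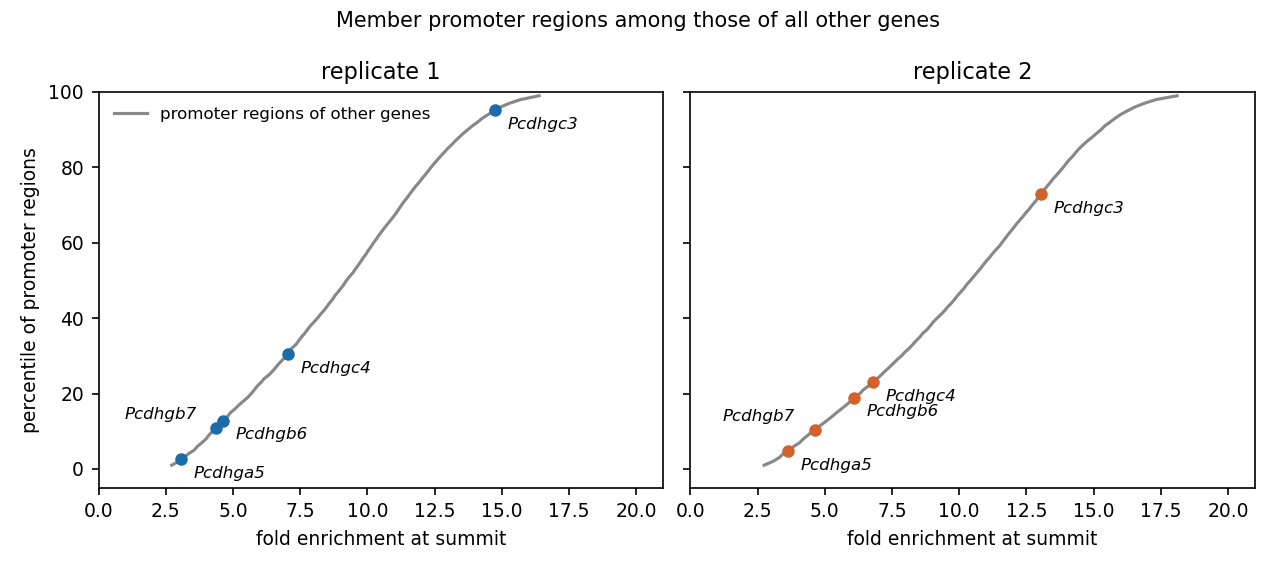
Percentile (vertical axis) of each fold enrichment (horizontal axis) among promoter regions of other genes, shown as a grey line for each replicate, with the 5 open members as points. Pcdhga5, Pcdhgb6 and Pcdhgb7 lie at the low end in both panels, and Pcdhgc3 lies high.

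The members found in 1 list only were weak. Pcdhgb5 had 4.10 in replicate 1, from 15 counts, Pcdhga7 had 3.16 in replicate 2, from 13 counts, and Pcdhga12 had 2.71 in replicate 2, from 11 counts, with its summit 738 bp inside the gene. Across the genome, regions of at most 4.5, a limit set after these values were seen, recurred in the other list for 67.4% of replicate 1 and 44.6% of replicate 2. Where the background was at the genome-wide level (2.90 counts in replicate 1 and 3.43 in replicate 2), the weakest regions called had 9 and 10 counts. A promoter without a region may therefore hold signal under this level, and openness below it was not detectable at this depth. Pcdhgb8, annotated as a polymorphic pseudogene and so not a member, had a stronger region at its start in replicate 2 alone, at 37761365 to 37762047 with 6.32 from 27 counts. Of replicate 2's regions above 4.5, 89.0% recurred in replicate 1.

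With the neighbours included, the cluster and 200 kb on each side held 27 shared regions: 14 at promoters, 9 in introns, 1 in an exon and 3 intergenic. A further 2 were in replicate 1 alone and 6 in replicate 2 alone. The member span itself had 0.768 shared regions per 100 kb, against 1.41 on chromosome 18 and 1.62 in the genome. This average joined unlike parts: α and β had 0 per 100 kb, γ had 3.33, the upstream flank 3.5 and the downstream flank 6.50.

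Within γ, 1 shared region lay away from the promoters. It was at 37824944 to 37825711, in an intron 5761.5 bp downstream of the Pcdhgc5 start and before the end of the constant exons, with 5.59 and 5.02. Beyond the end of the cluster, in the part of the chromosome where neuronal enhancers of the β genes are known, the first region lay 0.734 kb past the last exon and was intergenic, in replicate 2 alone, with 2.94. The next ones lay in introns of Diaph1, the gene of an actin-nucleating formin. The nearest of these, at 37852199 to 37852558 and 10.3 kb past the cluster, had 6.89 and 6.58. Another Diaph1 intron region spanned 37877324 to 37878060, where replicate 1 had 6.35 and replicate 2 had 4.601. The one spanning 37883413 to 37883992 reached 6.47 in replicate 1 and 7.59 in replicate 2. The strongest Diaph1 intron region, at 37925715 to 37926619 and 83.8 kb past the cluster, had 8.87 and 10.3. The region at 37908166 to 37908595 had 3.85 and 7.31, the largest ratio between replicates (1.90) of the shared regions of the cluster and its flanks. Which genes these regions act on was not measured.

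Of the 3 shared intergenic regions, 1 lay upstream of the cluster and 2 downstream. The one at 36801339 to 36802417, with 11.7 and 13.7, was centred 12 bp from the start of Vaultrc5, the vault RNA gene upstream of the α subcluster. The other 2 lay beyond Arap3. The nearer spanned 38013826 to 38015506 and had 8.25 in replicate 1 and 9.97 in replicate 2. The farther, spanning 38024817 to 38025757, was weak in both, at 3.56 and 3.74. No intergenic region lay between the subclusters.

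Of 18 other protein-coding genes that start in the span or flanks, 12 were open (66.7%), a share near the 64.5% of other genes on chromosome 18. They had fold enrichments of 7.61 to 13.1 in replicate 1 and 8.85 to 14.7 in replicate 2. Upstream these were Tmco6, Ndufa2 and Ik, which share a region, Wdr55, Hars and Hars2, which share another, and Zmat2. Taf7, which lies between β and γ, had 12.4 and 14.7. Downstream they were Diaph1 with 9.98 and 12.4, the histone deacetylase gene Hdac3 with 9.77 and 9.85, Rell2, which shares the Hdac3 region, and Fchsd1 with 11.8 and 14.3. Dnd1 and Slc25a2 were not open, nor were Gm42416, Gm37013 and Gm37388, whose starts lie among the α genes. Arap3 had a region in each list, 2.76 in replicate 1 and 3.54 in replicate 2, which did not overlap. Pcdhgc3 lay above all open neighbours in replicate 1 and within their range in replicate 2, and the other 4 open members lay below the lowest of them in both replicates.

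Other protocadherins outside the cluster were open at 4 of 13 genes (30.8%), against 57.4% of all protein-coding genes outside the cluster. Pcdh1, also on chromosome 18, had 6.58 and 9.50, Pcdh17 had 6.74 and 8.36, Pcdh19 had 6.79 and 4.59, and Pcdh7 had 3.22 and 2.92. Pcdh8 had a region in replicate 2 alone, with 2.94, and the remaining 8 had none. With a −log10 q of at least 10, 2 of these and 2 of the genes of the next list were open, against 51.2% of protein-coding genes outside the cluster. The Ugt1a genes encode a family of detoxifying enzymes, and their variable first exons are also spliced to shared exons. They were open at 4 of 9 genes (44.4%), against the same 57.4%. There Ugt1a6a had 13.3 and 16.1 and Ugt1a10 had 12.02 and 11.2, while Ugt1a7c had 4.36 and 7.45 and Ugt1a6b had 3.33 and 6.78.

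Genes listed for chromatin architecture, silencing and partners of protocadherin proteins were open almost throughout, where 57.4% of all other protein-coding genes were. Whether the product of each listed gene acts on this cluster was not tested. Of other genes rich in CpG at the promoter (a ratio of at least 0.6, described below), 89% were open. Whether the genes listed here are rich in CpG was not tested. Of 13 architecture genes (CTCF and cohesin subunits, loaders and release factors), 12 were open, and the exception was Ctcfl, the germline relative of Ctcf. Ctcf itself had 11.8 in both replicates. Of the cohesin subunit genes, Smc3 had 14.9 and 16.0, Rad21 14.3 and 13.0, Smc1a 12.2 and 13.6, Stag1 11.1 and 11.3, and Stag2 6.99 and 8.13. The loader genes Nipbl and Mau2 were far apart in level, Nipbl lowest of the list with 6.34 and 7.09 and Mau2 with 13.3 and 16.3. The Nipbl summits, however, lay more than 1 kb upstream of its start in both replicates, whereas those of Mau2 lay within 1 kb. The values of Nipbl are therefore those of a summit outside the promoter window. With the summit in place of the centre, 11 of the 13 architecture genes were open. Wapl, the release factor gene, had 14.5 and 14.9, its partners Pds5a and Pds5b had 12.3 and 10.8 and 13.1 and 12.7, and Zfp143, for a promoter-binding zinc finger protein, had 13.2 and 14.5. All 16 silencing genes were open at an annotated start, and 11 of them were with the 5′ end of the gene alone. Smchd1, whose product keeps the cluster repressed in several mouse tissues, had 11.7 and 12.4, the histone methyltransferase gene Setdb1 had 13.8 and 16.1, and the DNA methyltransferase gene Dnmt3b had 7.80 and 10.7. Ehmt2 had the lowest values, 3.65 and 5.31. Of 14 genes for proteins that bind or process protocadherins, all were open, from Ret with 5.10 and 3.36 to Nckap1l with 16.3 and 14.8 and Fyn with 13.2 and 15.8. An open promoter says nothing of protein amounts.

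**Figure D4:**
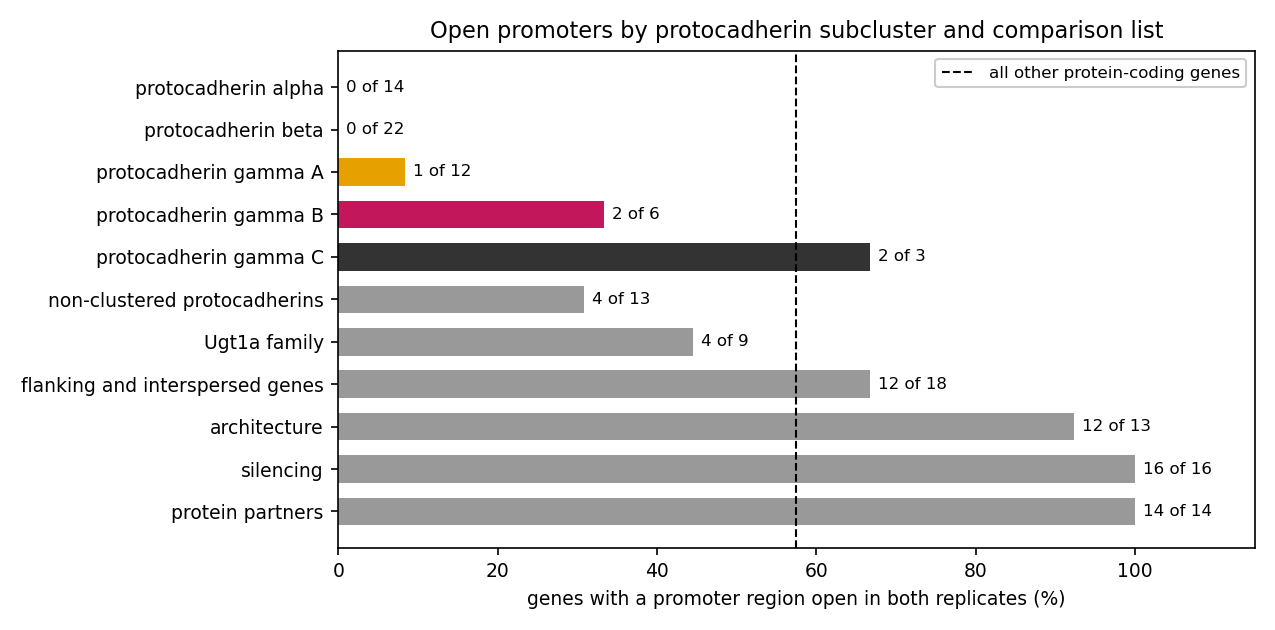
Share of genes (horizontal axis, %) with a promoter region open in both replicates, for each protocadherin subcluster (coloured) and comparison list (grey), with the number of genes beside each bar and the share of all other protein-coding genes, 57.4%, as a dashed line. The α and β rows are at 0, and the architecture, silencing and partner lists lie to the right of the line.

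The dinucleotide CpG is frequent at many open promoters. In the 250 bases before and 50 after the start, the CpG observed over expected ratio had a median of 0.521 over the members and 0.525 over other genes (0.743 over those that were open and 0.208 over those that were not). G+C content was lower in the members, 39.7% against 55%, so a like ratio does not mean a like density of CpG. The ratio was at least 0.6 at 21 members, of which 3 were open (14.3%), and at 9713 other genes, of which 89% were open. Under 0.6, 2 of 36 members (5.56%) and 32.2% of other genes were open. The α genes had a median of 0.638, with 9 of 14 at 0.6 or above, and the β genes 0.427, with 3 of 22. Pcdhgc3 had the highest ratio of the open members, 0.778, with a G+C content of 62%, and Pcdhgb6 the lowest, 0.434.

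**Figure D5:**
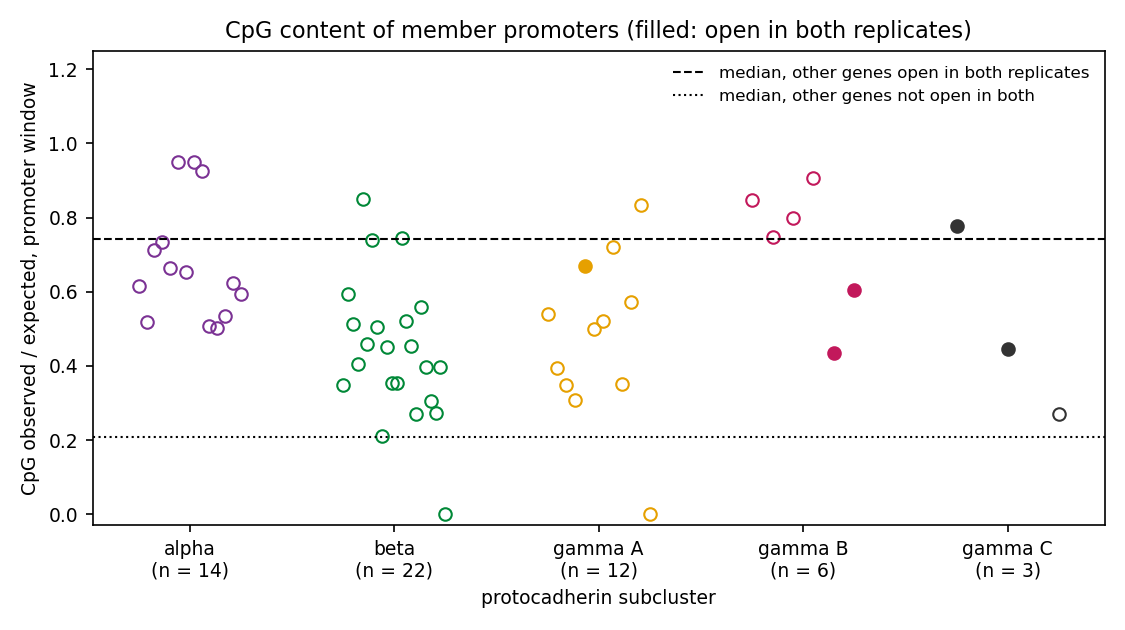
CpG observed over expected (vertical axis) in the promoter window of each member by subcluster, filled where the promoter was open in both replicates, with the medians of other genes that were open (dashed) and not open (dotted). The α points lie between 0.501 and 0.9505, and none is filled.

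A short core of the CTCF motif was searched on both strands of the reference. It was found in 4 of 57 member windows (7.02%), at Pcdha4, Pcdhac1, Pcdhb1 and Pcdhb15, against 9.42% of other promoters. In a wider window of 500 bases on each side of the start it was found at 22 members (38.6%) against 24.96% of other promoters. These were 12 of 14 α, 2 of 22 β, 7 of 18 γA and γB and 1 of 3 γC genes, and among the open members Pcdhga5 and Pcdhgc3. In 200 bp around the summits it was found in 8 of the 27 shared regions of the cluster and flanks (29.6%) against 11.7% of all shared regions. All 8 lay in the flanks and none in the member span, so the share is not one of the cluster itself. Of the 8, 3 were Diaph1 intron regions, at 37852199 to 37852558, 37883413 to 37883992 and 37908166 to 37908595. A match describes the letters of the reference only.

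The members resemble one another in sequence, so reads from them can match more than 1 place. Of the 32-base words within 1 kb of each start, the share found once in the genome was 73.7% to 100%, with medians of 88.9% for α, 99.6% for β, 97.6% for γA and γB together and 99.3% for other genes of chromosome 18. Of 16 members at 100%, Pcdhgc3 and Pcdhgc4 were open and 14 were not. Pcdha7 had the lowest share, and the open genes Pcdhgb6 and Pcdhgb7 had 90% and 88.5%. The sources used here do not say how reads with several matches were treated, and their part in the counts was not tested.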

How the data were processed

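The 2 lists of open regions from ATAC-seq of Th2 cells were analysed, and per the notes deposited with each list the authors derived it from 1 alignment of that library on mm10. For the aligner, peak caller and depth, the sources used here give nothing, and the region names hold words (ASTARR, insert, masked, dedup) that no source explains. Whether the fragments passed through a cloned library is not stated. Each deposited region has a fold enrichment (a ratio), a −log10 p-value and −log10 q-value, and a score (not used). The summit position is also deposited.

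Regions overlapping by at least 1 bp were joined across replicates. Start sites were those of the GENCODE M21 basic set on 21 main chromosomes. Summit counts were recovered as whole numbers under a Poisson model with a pseudocount of 1, within 0.001 of the deposited −log10 p-value (51546 and 60848 regions). Sequence features came from GRCm38.p6. Code was checked on simulated data and run with Python 3.11.15, pandas 2.3.3 and scipy 1.17.1. Members and lists were chosen with earlier results of these data known. The symbols Znf143 and Pcdh21 matched no gene. Every member is accounted for. Those with a region in either list, open genes of the architecture and non-clustered protocadherin lists, the highest and lowest of other lists and open neighbours were to be named.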

Additional observations from a re-analysis of the deposited data

How the results depend on the processing

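The count of 5 open members was unchanged with any base or the summit of a region in place of its centre, with windows of 0.5 and 2.5 kb, with the 5′ end of the gene alone and, as alternatives added after seeing the data, with the full annotation and with Pcdhgb8 included. It was 4 with 50% reciprocal overlap, which drops Pcdhga5. With a −log10 q of at least 10 it was 2 (Pcdhgc3 and Pcdhgc4), against 51.2% of other genes, and leaving out each replicate gave 6 to 7. No α or β gene was open under any of these settings, and the region-free stretch stayed at 841 kb. The 27 regions of the cluster and flanks became 15 with flanks of 100 kb, and 19 with the stricter q. Leaving out each replicate gave 29 to 34. The architecture, silencing, non-clustered protocadherin, partner, Ugt1a and neighbouring genes together had 62 open promoters, 55 to 64 under the alternatives. The lowest count came with the 5′ end of the gene alone, where 11 silencing genes were open in place of 16. The share of member promoters with a CTCF core rose from 7.02% to 38.6% in the wider window, as that of other genes rose from 9.42% to 24.96%. No paired analysis was possible because there is only 1 group. Each list's threshold and depth limit what a missing region shows.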

Other observations

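The stretch without a region across α and β stood out by its gene count more than by its length. Of 67005 intervals between regions of the combined lists, 475 were at least as long, 16 of them on chromosome 18. The stretch holds the 5′ ends of 40 protein-coding genes: 36 α and β members, Gm42416, Gm37013, Gm37388 and Slc25a2. Only 16 intervals in the genome, this one included, held as many, and the fullest held 235. These are counts of called regions and were not tested.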
